A study of Rattus norvegicus with 32 samples.

Results

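The genes described here are the core regulators of mitochondrial and receptor-driven apoptosis together with targets of p53: Bax, Bcl2, Bcl2l1, Bbc3, Pmaip1, Casp9, Fas, Mdm2 and Apaf1. They were chosen by gene name, and 8 of the 9 matched 1 of the 28914 gene names counted in each library, while Bbc3 was not analysed here. Their transcripts were counted by RNA-seq in 4 brain regions of adult male Sprague-Dawley rats. In the hippocampus these were the dentate gyrus (DG) and Ammon's horn (CA), in the ventral striatum the nucleus accumbens (NAc), and along the lateral ventricle the subventricular zone (SVZ). Rats received methamphetamine (METH, 10 mg/kg) or saline (Sal) in 4 intraperitoneal injections at intervals of 2 h, and tissue was taken 24 h after the last of them. Each region had 4 Sal and 4 METH samples, 32 in all. The METH rats became hyperthermic under this regimen, so the drug and the raised body temperature cannot be told apart. NAc and SVZ were punched from slices and DG and CA were scooped out of the hippocampus, so each sample is a mixture of cell types.

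Apoptosis through mitochondria is held in check by Bcl2 and Bcl2l1 (BCL-XL), which bind and restrain the pore-forming protein Bax. BH3-only proteins such as those encoded by Pmaip1 (NOXA), Bbc3 (PUMA) and Bmf neutralise the guardians, and cytochrome c released through the pore lets Apaf1 assemble the apoptosome that activates caspase-9. Fas is a cell surface receptor that starts the second, receptor-driven route. The transcription factor p53 activates Bax, Bbc3, Pmaip1, Fas, Apaf1 and Mdm2, and the Mdm2 protein in turn marks p53 for degradation. High doses of METH are known to be toxic to dopaminergic terminals and to induce cell death in several brain regions of rodents.

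The libraries held 11094002 to 21869773 reads on genes, with a median of 14533166.5. Expression is given as CPM, the counts scaled by upper-quartile library sizes, and 1 read was worth 0.0460 to 0.0940 CPM. Markers of the dissected regions overlapped between labels. The summed markers of dentate granule neurons lay between 97.2 and 511 CPM in the 8 DG libraries and between 116 and 550 CPM in the 8 CA libraries. The summed markers of striatal medium spiny neurons reached 872 to 4465 CPM in the NAc Sal libraries, 85.8 to 1854 CPM in the NAc METH libraries and 160 to 3355 CPM in the SVZ Sal libraries. Summed markers of neuroblasts and dividing cells lay between 23.6 and 268 CPM in the SVZ and between 30.6 and 95.6 CPM elsewhere. Of the 14 library numbers that the file headers carry, 4 stand under Sal in some regions and under METH in others, all through DG replicates 1 and 2 of both treatments. Results were therefore also computed without those 4 libraries. The 4 SVZ METH libraries carry only 2 library numbers, replicates 1 and 2 sharing one and 3 and 4 the other, and no source used here says whether they are 4 rats. Their values are given as n = 4, and the SVZ was also fitted with same-numbered libraries summed. The summed level of 5 astrocyte markers (Aqp4, Gja1, Slc1a3, Aldh1l1 and Gfap), none of them at 0 in all libraries, was compared as well. The study lists Gfap among the genes that responded to METH in multiple regions. How much each marker adds to the differences of this sum was not tested. In the NAc it was higher in every METH than in every Sal library (2207 to 3729 against 1840 to 2143 CPM). The same held in the DG (2602 to 2727 against 1841 to 2177 CPM) and the SVZ (2215 to 2768 against 1795 to 2213 CPM). In the CA the groups overlapped (2328 to 2927 against 1913 to 2675 CPM). The part of the astrocyte sum in the METH differences given for single genes was not tested.

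All 8 genes were detected in every library, but at very different levels. On the scale of CPM per kilobase of exon, averaged over the 32 libraries, Bcl2l1 was the most abundant at 17.8 and lay above 71.9% of the 16122 genes that passed the filter on low counts. Bax at 11.3, Mdm2 at 11.2 and Casp9 at 9.89 CPM per kilobase stood near the middle of all genes, above 59.5%, 59.2% and 55.8% of them. Apaf1 at 4.67, Bcl2 at 2.88 and Pmaip1 at 2.11 CPM per kilobase lay in the lower part of the range. Fas, the death receptor, was the scarcest at 0.238 CPM per kilobase, above only 2.60% of the genes. Its level was 0.134 to 1.17 CPM, which corresponds to 2 to 25 reads per library, and 4 libraries held 3 reads or fewer. Per length, the guardian Bcl2l1 exceeded Bax by a mean ratio of 1.59 ± 0.37 (SD, n = 32), whereas the ratio of Bcl2 to Bax was 0.258 ± 0.074 (SD, n = 32).

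In the rn6 build that the counts use, Bax lies on chromosome 1 between 101451802 and 101457207 on the minus strand and Fas on the same chromosome between 252589785 and 252624790 on the plus strand. Bcl2 spans 26605426 to 26769374 on the minus strand of chromosome 13, and Bcl2l1 spans 148259596 to 148313810 on the minus strand of chromosome 3. Casp9 spans 160355833 to 160373778 on the plus strand of chromosome 5. Mdm2 at 60719066 to 60743328 and Apaf1 at 31699885 to 31784192 both lie on the minus strand of chromosome 7, and Pmaip1 lies on the plus strand of chromosome 18 at 62174670 to 62181102. All counts are over merged exons, and no exon base of the 8 genes is shared with another annotated gene.

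RefSeq promoters of the GRCr8 build, each running from 250 bases before to 50 bases after a transcription start, were found for 7 of the 9 genes. There were 10 promoters in all, several of them of Bcl2l1. None was found for the p53 targets Bax and Bbc3, so what follows does not cover them. None of the 10 held the consensus decamer of a p53 response element on either strand, beside 7.98% of all 33469 promoters in the table. This says only that these letters are not in this window. A GC box (GGGCGG on either strand), the core of Sp1 binding sites, stood in 6 of the 10 promoters and in 33.1% of all promoters. The promoters of Casp9 (chr5:159391824-159392123, plus strand) and Mdm2 (chr7:55200742-55201041, minus strand) are shown because the results below turn on these genes. GC boxes are in capitals, 3 in Casp9 and 2 in Mdm2.
Casp9: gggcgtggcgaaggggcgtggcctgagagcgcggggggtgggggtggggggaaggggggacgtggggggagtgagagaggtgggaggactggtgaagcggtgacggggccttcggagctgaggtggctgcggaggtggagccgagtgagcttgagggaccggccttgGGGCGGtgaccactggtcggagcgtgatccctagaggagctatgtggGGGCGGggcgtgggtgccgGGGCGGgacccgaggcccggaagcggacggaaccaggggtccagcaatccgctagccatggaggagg
Mdm2: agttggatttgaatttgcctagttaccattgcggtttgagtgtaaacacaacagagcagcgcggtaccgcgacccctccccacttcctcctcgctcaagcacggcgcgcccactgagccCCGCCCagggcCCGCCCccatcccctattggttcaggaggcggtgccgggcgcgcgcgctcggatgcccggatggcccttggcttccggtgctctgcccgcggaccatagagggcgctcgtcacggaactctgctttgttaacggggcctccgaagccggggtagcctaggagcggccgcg

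**Figure D1:**
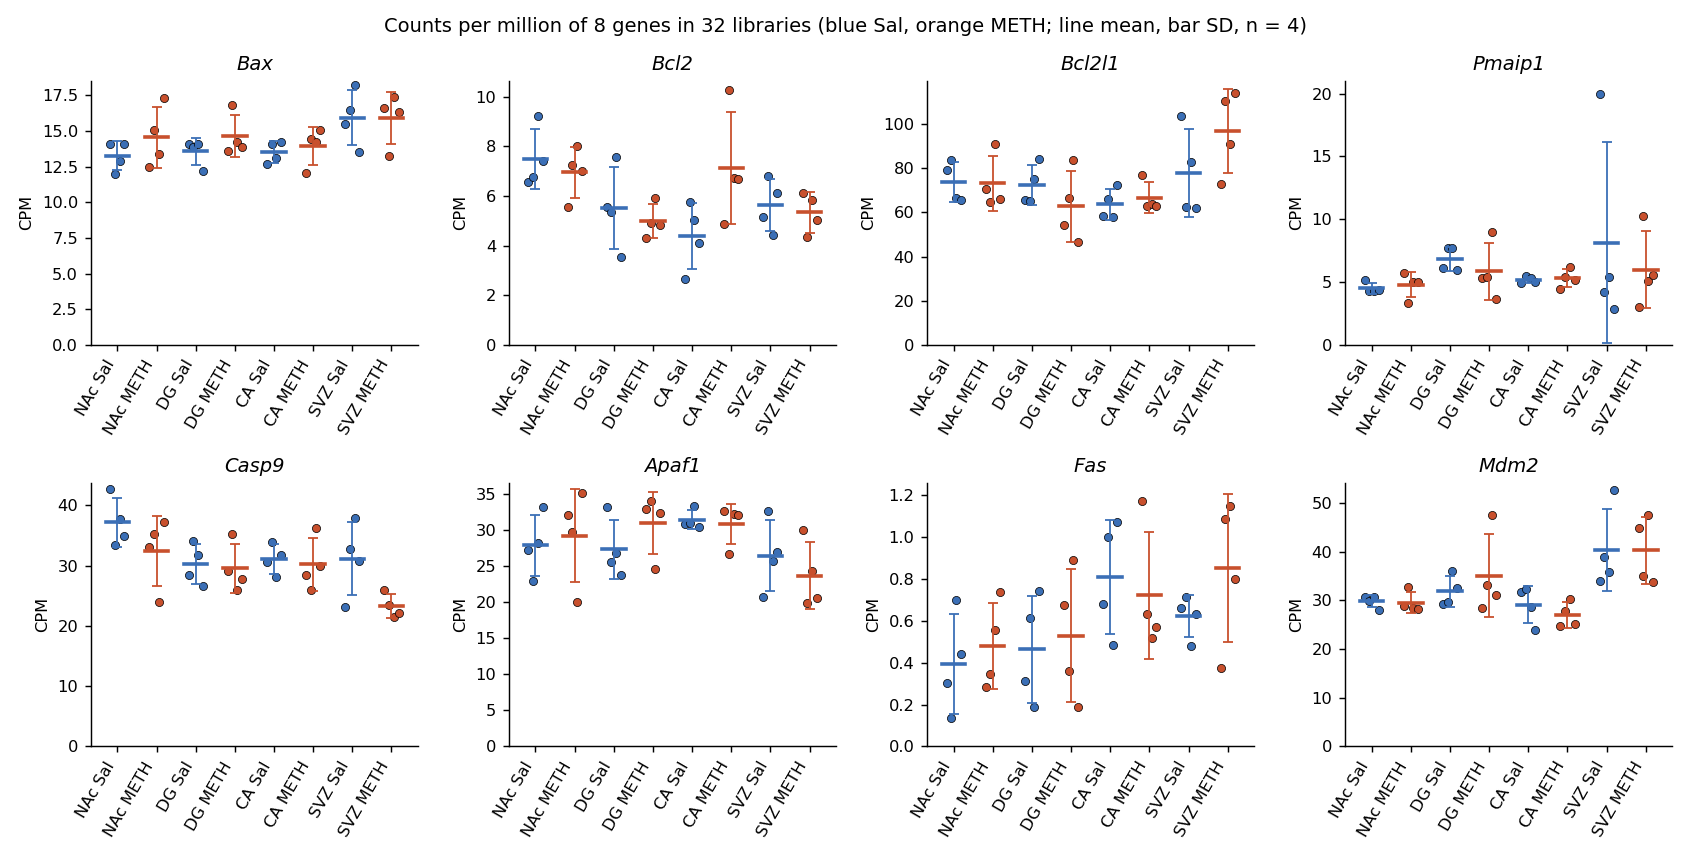
Each point is 1 library, with CPM on the vertical axis (a separate linear scale from 0 for each gene) and the 8 groups of 4 libraries along the horizontal axis; the line is the mean and the bar the SD. Sal and METH libraries overlap in every region for every gene, Mdm2 is highest in the SVZ, and a single SVZ Sal library stands at 20.0 CPM of Pmaip1.

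The first question was whether METH altered these transcripts within a region. None of them passed an FDR of 0.05 (edgeR's quasi-likelihood test, Benjamini-Hochberg adjustment over all genes tested). The tests covered 7 of the genes in the NAc, DG and CA, where Fas was removed by the filter on low counts, and 8 in the SVZ. In the NAc, DG and CA, some sequencing runs held libraries of a single treatment. Treatment and run therefore cannot be fully told apart in these regions. The run was not in the model of these tests and was added only as an alternative. At an unadjusted p under 0.05 there were 1 of 7 genes in the CA (Bcl2) and 1 of 8 in the SVZ (Casp9), beside 0 of 7 in each of the other regions. Among all genes tested, 3.39%, 12.8%, 7.16% and 2.58% passed that unadjusted threshold in the 4 regions, and 0%, 0.00676%, 0% and 0% passed an FDR of 0.05. The range of Sal values and that of METH values overlapped for every one of the genes in every region, beside 2.26%, 7.39%, 4.43% and 1.6% of all tested genes whose groups were apart in the NAc, DG, CA and SVZ.

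Casp9, the initiator caspase of the mitochondrial route, had the lowest p of the 8 genes for METH in the SVZ. There it was at 23.2, 32.8, 37.9 and 30.8 CPM in the Sal libraries and at 26.0, 23.5, 21.5 and 22.2 CPM in the METH libraries. Of the METH libraries 2 lay below every Sal library, and 3 of the Sal libraries lay above every METH library, with SVZ Sal 1 among the METH values. The log2 difference was -0.42 ± 0.16 (SE), with a 95% interval from -0.77 to -0.06 (FDR = 0.979, edgeR, with an unadjusted p under 0.05). The unadjusted p stayed under 0.05 in 3 of the 8 fits that left out 1 library, with log2 differences from -0.54 to -0.31. It was above 0.05 with same-numbered SVZ METH libraries summed, at a log2 difference of -0.44 (95% interval -0.95 to 0.07). In the NAc, the Sal libraries stood at 42.7, 33.4, 37.7 and 34.9 CPM and the METH libraries between 24 and 37.2 CPM, with a log2 difference of -0.19 (95% interval -0.52 to 0.15). Over 9 alternatives other than leaving out 1 library, the sequencing run covariate among them, that difference ran from -0.38 to -0.08. In the DG and CA the log2 differences were -0.03 (-0.33 to 0.26) and -0.04 (-0.30 to 0.22).

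Averaged over the 4 regions, Casp9 was at 32.4 ± 4.73 CPM in the 16 Sal libraries and at 28.8 ± 5.18 CPM in the 16 METH libraries (SD). The log2 difference of METH against saline, with region in the model, was -0.17 ± 0.07 (SE), or 0.886-fold, with a 95% interval from -0.32 to -0.03 (FDR = 0.590, edgeR). It was the only 1 of the 8 genes with an unadjusted p under 0.05 in this fit, beside 7.45% of all 16122 genes, and 0% of all genes had an FDR under 0.05. The unadjusted p stayed under 0.05 in each of the 32 fits that left out 1 library, with log2 differences from -0.20 to -0.14, and in each of 11 other alternatives. The effect on Casp9 was not shown to differ between regions (interaction FDR = 0.862, edgeR).

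Bcl2, the founding guardian of the family, had the other unadjusted p under 0.05, in the CA. Its level there was 2.67, 5.76, 5.04 and 4.12 CPM in the Sal libraries and 4.85, 10.3, 6.74 and 6.67 CPM in the METH libraries. Of the 4 METH libraries, 3 lay above every Sal library, and the fourth lay within the Sal range. The log2 difference was 0.70 ± 0.28 (SE), with a 95% interval from 0.06 to 1.34 (FDR = 0.687, edgeR). The unadjusted p stayed under 0.05 in 3 of the 8 fits that left out 1 library, with log2 differences from 0.48, without the library at 10.3 CPM, to 0.86. With the sequencing run in the model it was 0.53 and the unadjusted p above 0.05. In the NAc, DG and SVZ the log2 differences of Bcl2 were -0.09, -0.14 and -0.07, each with an interval that spans 0. The test that the METH effect differs between regions gave an FDR of 0.633 for Bcl2 (edgeR), the single gene of the 8 with an unadjusted p under 0.05, beside 7.74% of all genes and 0.0062% at an FDR under 0.05. Relative to Bax per length, Bcl2 stood at 0.200 ± 0.056 in the CA Sal libraries and at 0.315 ± 0.086 in the CA METH libraries (SD, n = 4).

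For the remaining genes the intervals give the size of effect that these libraries still allow. Bax, the pore former, was the best measured: averaged over the regions its log2 difference was 0.07, with a 95% interval from -0.04 to 0.18, and the interval of the fold ran from 0.973 to 1.13. Mdm2, the p53 target and p53 inhibitor, had an averaged log2 difference of 0.00 (-0.14 to 0.15), and Apaf1, the apoptosome scaffold, of 0.01 (-0.15 to 0.18). The interval of the fold ran from 0.906 to 1.11 for Mdm2 and from 0.903 to 1.13 for Apaf1. Bcl2l1 stood at 0.04 (-0.14 to 0.23). The scarcer genes were less constrained. Pmaip1, the NOXA gene, had an averaged log2 difference of -0.14 (-0.54 to 0.26) and Fas of 0.22 (-0.26 to 0.69).

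**Figure D2:**
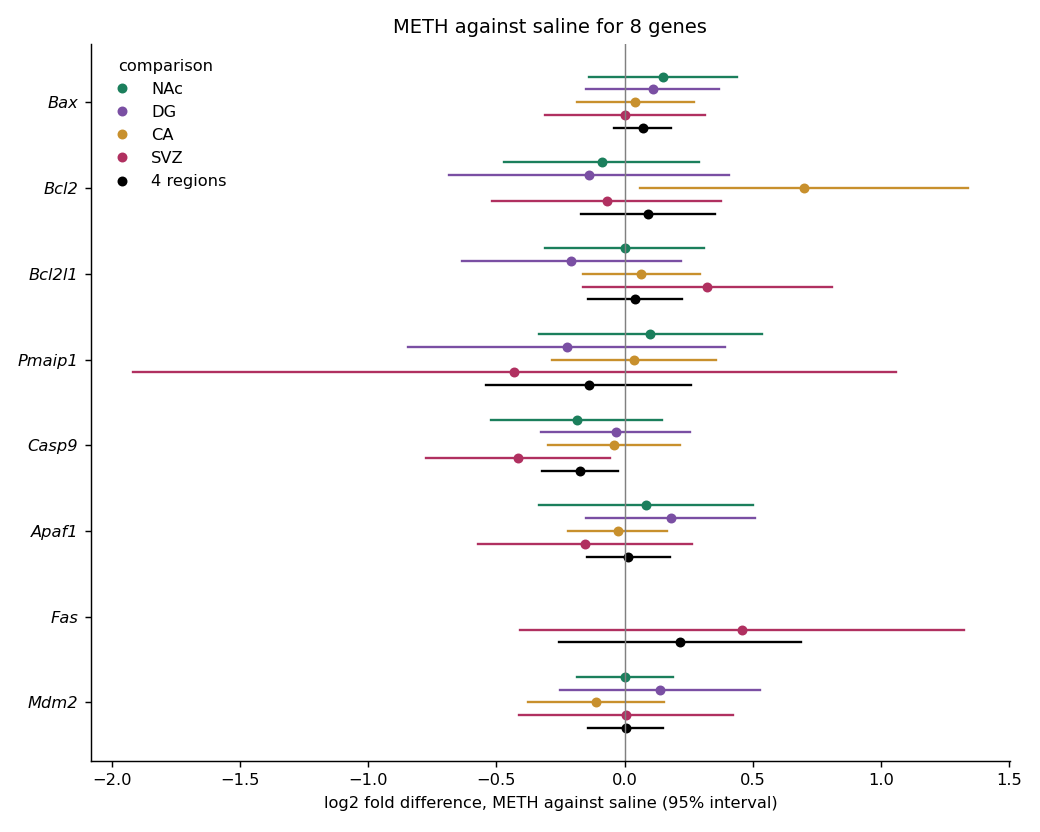
Points are log2 fold differences of METH against saline from edgeR and lines are their 95% intervals, for 8 genes in each region and averaged over the 4 regions (black); Fas was fitted only in the SVZ and in the averaged fit. Of these intervals, those of Bcl2 in the CA, Casp9 in the SVZ and Casp9 averaged over the regions leave out 0, and the widest is that of Pmaip1 in the SVZ.

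In the SVZ the spread of Pmaip1 turned on a single library, and Bcl2l1 varied widely within both treatments. Pmaip1 was at 20.0, 4.23, 5.39 and 2.82 CPM in the SVZ Sal libraries and at 3.04, 10.3, 5.10 and 5.54 CPM in the SVZ METH libraries. SVZ Sal 1 thus exceeded every other library, and its log2 difference for METH in the SVZ was -0.43 (95% interval -1.92 to 1.06) with it and 0.53 without it. Outside the SVZ, Pmaip1 lay between 3.36 and 9.02 CPM in all 24 libraries. Bcl2l1 in the SVZ was at 103.8, 62.6, 83.0 and 61.9 CPM in the Sal libraries and at 72.7, 110.4, 90.9 and 114 CPM in the METH libraries, a log2 difference of 0.32 (95% interval -0.16 to 0.81, FDR = 0.979, edgeR). It exceeded 100 CPM in SVZ Sal 1, SVZ METH 2 and SVZ METH 4 and in no other library.

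The saline libraries alone show how the genes differ between regions. By the file headers, all SVZ libraries, Sal and METH alike, came from a sequencing run that no library of another region shared. Region and run therefore cannot be told apart in any contrast of the SVZ with another region. Mdm2 was the only one of the 8 that passed an FDR of 0.05 between any pair of regions, in the SVZ against the CA. It stood at 34.0, 38.9, 35.8 and 52.7 CPM in the SVZ Sal libraries and at 31.8, 32.3, 28.6 and 23.9 CPM in the CA Sal libraries, so the groups did not overlap. The log2 difference was 0.47 ± 0.14 (SE), or 1.38-fold, with a 95% interval from 0.18 to 0.76 (FDR = 0.0383, edgeR). In this contrast 31.6% of all 15515 genes had an unadjusted p under 0.05, 13.2% had an FDR under 0.05, and the median log2 difference of all genes was 0.10. The METH libraries, which this fit did not use, had Mdm2 at 44.9, 35.0, 47.5 and 33.8 CPM in the SVZ and at 24.7, 27.9, 30.4 and 25.1 CPM in the CA, again without overlap. Groups were apart for 21.3% of all genes in the Sal libraries and for 24.4% in the METH libraries.

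The call for Mdm2 between the SVZ and CA sat close to the threshold. It was kept in 8 of the 16 fits that left out 1 saline library, with log2 differences from 0.31 to 0.54 and FDR values from 0.0196 to 0.0984. Without SVZ Sal 4, the library at 52.7 CPM, the log2 difference was 0.31 and the FDR 0.0984. With TMM in place of upper-quartile normalization the log2 difference was 0.41 and the FDR 0.0507, with an RNA integrity covariate 0.0535, and with no filter on low counts 0.0638.

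Mdm2 had the lowest p of the 8 genes in the test over all 4 regions as well (FDR = 0.0956, edgeR), where 26.7% of all genes had an unadjusted p under 0.05 and 5.79% an FDR under 0.05. Its mean was 40.3 ± 8.50 CPM in the SVZ, 31.8 ± 3.10 in the DG, 29.8 ± 1.23 in the NAc and 29.1 ± 3.88 in the CA (SD, n = 4). Of the neighbours in this order, the SVZ stood above the DG by 0.34 on the log2 scale (95% interval 0.05 to 0.63, FDR = 0.222, edgeR), and DG, NAc and CA did not differ beyond their spread. Against the NAc the SVZ stood higher by 0.44 (95% interval 0.15 to 0.73, FDR = 0.214, edgeR).

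The other genes did not pass an FDR of 0.05 between regions. Bax was highest in the SVZ, at 15.9 ± 1.94 CPM, beside 13.6 ± 0.94 (DG), 13.5 ± 0.77 (CA) and 13.3 ± 1.01 (NAc) elsewhere (SD, n = 4), and its log2 differences of 0.23 to 0.26 had FDR values of 0.147 to 0.320 (edgeR). Bcl2 followed another order, at 7.49 ± 1.22 CPM in the NAc, 5.62 ± 1.04 in the SVZ, 5.50 ± 1.65 in the DG and 4.39 ± 1.33 in the CA. The CA stood lower than the NAc by 0.77 on the log2 scale (log2 difference -0.77, 95% interval -1.31 to -0.22, FDR = 0.0869, edgeR). Saline NAc and CA libraries of the same replicate share a library number and deviated together (correlations of 0.119 to 0.243 in the 4 pairs), so they may not be independent, and with the replicate as a block the FDR was 0.0825 (edgeR). The neighbours in the order of Bcl2 did not differ beyond their spread. Casp9 was highest in the NAc at 37.2 ± 4.06 CPM, beside 30.3 ± 3.33 in the DG, 31.1 ± 2.46 in the CA and 31.2 ± 6.10 in the SVZ, with an FDR of 0.428 for the DG against the NAc (log2 difference -0.30). Fas had a mean of 0.809 CPM in the CA and 0.393 CPM in the NAc (FDR = 0.195, edgeR).

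Unadjusted p under 0.05 was reached by 1 of 8 genes in the DG against the NAc (11.5% of all genes), 2 of 8 in the CA against the NAc (24.1%), 2 of 8 in the SVZ against the NAc (12.6%), 0 of 8 in the CA against the DG (8.93%), 2 of 8 in the SVZ against the DG (17.6%) and 2 of 8 in the SVZ against the CA. In those first 5 contrasts 0%, 5.1%, 0.11%, 0% and 0.0516% of all genes had an FDR under 0.05, and none of the 8 did.

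Several of the genes stood near an end of their range in the libraries richest in markers of a cell type. The level of 5 oligodendrocyte markers, Mbp and Mog among them and none of them at 0 in all libraries, was summed. The sum was 17835 to 26390 CPM in SVZ Sal 1, SVZ METH 2 and SVZ METH 4 and 2153 to 13793 CPM in the other 29 libraries. These 3 libraries also held the 3 highest levels of Bcl2l1, 103.8 to 114 CPM against 46.8 to 91.1 CPM in the other 29. They were low in Casp9, at 22.2 to 23.5 CPM beside 21.5 to 42.7 CPM, and in Apaf1, at 19.9 to 20.7 CPM beside 20.1 to 35.1 CPM. Casp9 did not follow the marker sum throughout. Its highest level, 42.7 CPM, was in NAc Sal 1 at a sum of 11083 CPM, and its lowest, 21.5 CPM, in SVZ METH 3 at 8322 CPM. The p53 target Cdkn1a (p21), chosen here after its values were seen, stood at 28.3 to 32.1 CPM in them, beside a median of 4.28 CPM and a range of 2.25 to 31.4 CPM in the rest. By group the oligodendrocyte sum was 3642 to 17835 CPM in SVZ Sal and 8322 to 26390 CPM in SVZ METH, and its part in the Casp9 and Bcl2l1 differences there was not tested. In such tissue samples fewer cells of a type and less RNA per cell cannot be told apart.

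Mdm2 was highest in the libraries richest in markers of another cell type. Of 5 ependymal markers, 4 matched a counted gene name (Tmem212, Ccdc153, Rsph1 and Dnah12), and none of these was at 0 in all libraries. Their sum was 311 CPM in SVZ Sal 4, 169 in SVZ METH 3, 155 in SVZ METH 1 and 132 in DG METH 3, and 3.84 to 100.5 CPM in the other 28 libraries. The same 4 libraries had the 4 highest levels of Mdm2, from 44.9 to 52.7 CPM, while the other 28 lay between 23.9 and 38.9 CPM. In order of the ependymal sum their Mdm2 ranks were 1, 2, 4 and 3. The cuts, at 4 libraries here and at 3 for the oligodendrocyte markers, were not set in advance, and the match depends on them. In the saline groups the ependymal sum was 45.8 to 311 CPM in the SVZ and 3.88 to 54.2 CPM in the CA, and its part in the difference of Mdm2 between these regions was not tested. Choroid plexus markers did not follow the same libraries throughout, with sums of 8293 CPM in SVZ METH 3 and 6188 CPM in DG METH 3 but 47.1 CPM in SVZ Sal 4 and 7.56 CPM in SVZ METH 1.

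**Figure D3:**
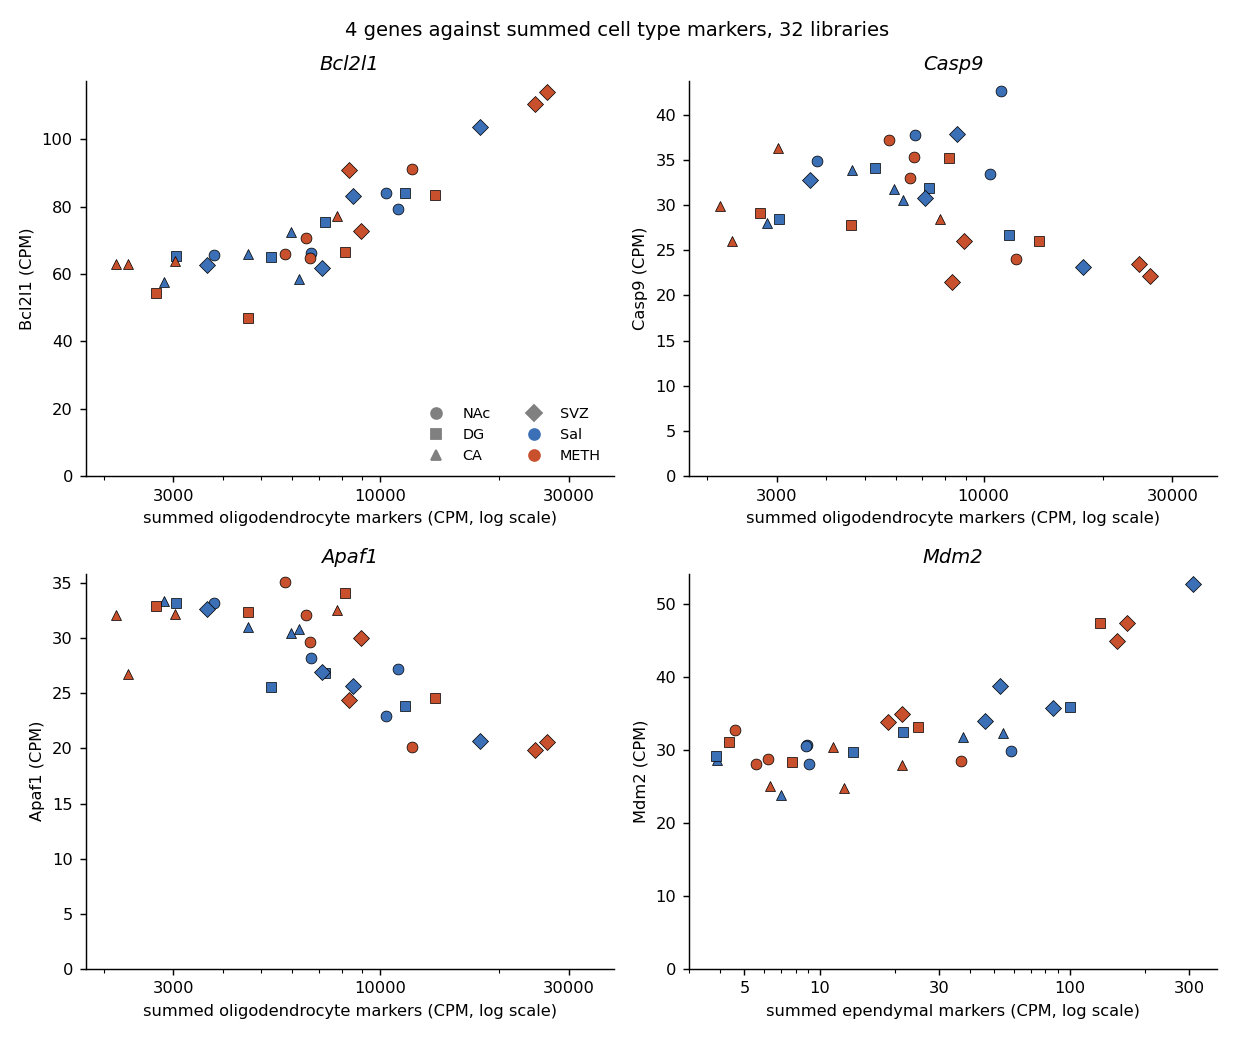
Each point is 1 of 32 libraries (shape, region; blue, Sal; orange, METH); the vertical axes give the CPM of Bcl2l1, Casp9, Apaf1 and Mdm2 from 0, and the horizontal axes give summed oligodendrocyte or ependymal markers in CPM on a log scale. The 3 libraries with most oligodendrocyte marker RNA are the 3 highest in Bcl2l1 and lie at the low end of Casp9 and Apaf1, and the 4 with most ependymal marker RNA are the 4 highest in Mdm2.

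The genes whose levels were most like each of the 8, by Pearson's r of log2(CPM + 1) over the 32 libraries, are given as a description, since the libraries share regions and composition. Bcl2l1 ran closest to Kcna6 (r = 0.942), Cadm4 (0.937) and Dnajb2 (0.935). Apaf1 ran closest to Celf2 (0.897), Ddn (0.877) and Ttyh3 (0.876), of which Ddn encodes dendrin of neuronal dendrites. Mdm2 ran closest to AABR07068007.2 (0.887), Spata17 (0.886) and Dcdc5 (0.880). Casp9 ran closest to Josd1 (0.875), Tmem191c (0.854) and AABR07068351.1 (0.827). The scarcer or flatter genes had looser partners: Pmaip1 with Dlst (0.772), Mdp1 (0.752) and Slc45a4 (0.746), Bcl2 with Krt1 (0.758), Cpsf1 (0.734) and Abcb6 (0.730), Bax with Maf1 (0.697), Gtf2h4 (0.677) and AABR07072748.2 (0.650), and Fas with Dhrs3 (0.615), Upf3a (0.615) and Anxa4 (0.600). No 2 of the 8 genes were among each other's 3 closest.

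The rest of the pathway was described from 4 lists with 76 genes, of which 73 were counted: other BCL2 family members, caspases and their regulators, the death receptor pathway and the p53 pathway. None had an FDR under 0.05 for METH in any region or in the averaged fit (edgeR). At an unadjusted p under 0.05 there were 2 of 64 genes tested in the NAc, 6 of 64 in the DG, 8 of 63 in the CA, 3 of 69 in the SVZ and 7 of 69 in the averaged fit, or 3.12%, 9.38%, 12.7%, 4.35% and 10.1%. Over all genes tested the shares were 3.39%, 12.8%, 7.16%, 2.58% and 7.45%, so that the lists lay below them in the NAc and DG and above them in the CA, SVZ and averaged fits. Of the 7 in the averaged fit, 1 was higher and 6 were lower in METH.

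The single BCL2 family gene of these 7 was Bmf, which encodes a BH3-only protein, and it was the family member with the smallest p in the NAc, CA, SVZ and averaged fits. Its level was 3.69, 6.01, 4.18 and 4.03 CPM in the NAc Sal libraries and 6.49, 5.59, 7.72 and 5.88 CPM in the NAc METH libraries. In the CA it was 4.32, 4.53, 4.005 and 2.80 CPM in Sal and 5.68, 5.60, 6.74 and 5.89 CPM in METH. In the SVZ it was 5.62, 5.23, 4.38 and 4.61 CPM in Sal and 8.36, 6.46, 6.85 and 6.01 CPM in METH. Sal and METH libraries were thus apart in the CA and SVZ, as they were for 4.43% and 1.6% of all genes tested there. In the NAc 2 of 4 METH libraries lay above all Sal libraries. Bmf was named for its small p in these same libraries, so their separation adds no support of its own. In the DG, Sal stood at 4.46, 4.02, 5.34 and 5.34 CPM and METH at 2.58, 5.92, 8.08 and 6.16 CPM, with 3 METH libraries above and DG METH 1 below every Sal library.

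For Bmf the log2 differences were 0.53 in the NAc (95% interval 0.08 to 0.98), 0.25 (-0.49 to 0.98) in the DG, 0.61 (0.21 to 1.00) in the CA and 0.49 (0.11 to 0.87) in the SVZ. With the sequencing run in the model the DG value turned to -0.34. In the DG only the run of Sal 3, METH 1 and METH 2 held both treatments, so that value rests on these libraries. METH 1 and METH 2 are among the libraries whose numbers stand under both treatments. The SVZ value was 0.46 (-0.01 to 0.94) with same-numbered METH libraries summed. Averaged over regions, Bmf was at 4.54 ± 0.81 CPM in the 16 Sal libraries and at 6.25 ± 1.31 CPM in the 16 METH libraries (SD), a log2 difference of 0.46 ± 0.11 (SE) or 1.38-fold (95% interval 0.24 to 0.69, FDR = 0.348, edgeR). The FDR was 0.0434 with DESeq2, 0.0239 with RUVr factors and 0.0208 without DG replicates 1 and 2. Over the 32 fits that left out 1 library it ran from 0.0102, without DG METH 1, to 0.644, and was under 0.05 in 1 of them. A difference of the effect between regions was not shown (interaction FDR = 0.992, edgeR). Of the 13 genes of this list tested in the averaged fit, Bmf included, 9 lay above 0, and their median log2 difference was 0.03, beside 0.01 over all genes. Astrocyte marker sums did not overlap between Sal and METH in the NAc, DG and SVZ, as given above, and their part in the difference of Bmf was not tested.

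In the DG the smallest p of the BCL2 family was that of Bok, which encodes a pore former related to Bax. Bok was at 17.6, 12.9, 22.3 and 12.3 CPM in the Sal libraries and at 38.4, 42.8, 47.3 and 65.2 CPM in the METH libraries. The groups were apart, as they were for 7.39% of all genes tested in the DG. Bok too was named for its p in these same libraries. The log2 difference was 1.57 ± 0.24 (SE), or 2.97-fold (95% interval 1.02 to 2.12, FDR = 0.157, edgeR), with an FDR of 1.3e-06 with DESeq2 and 0.0264 with RUVr factors. With the sequencing run in the model the log2 difference was 0.86 (FDR = 0.371). That value rests on DG Sal 3, METH 1 and METH 2, as given for Bmf. Without DG replicates 1 and 2 of both treatments, no gene of the 4 pathway lists, Bok among them, was called in the DG. The libraries left for that fit had Bok at 22.3 and 12.3 CPM in Sal and at 47.3 and 65.2 CPM in METH. With so few libraries, the lost call does not show that the difference rested on those left out. In the same DG libraries the astrocyte sum was 1841 to 2177 CPM in Sal and 2602 to 2727 CPM in METH, and the sum of CA pyramidal neuron markers was 446 to 1057 CPM in Sal and 1001 to 2127 CPM in METH, and the part of these in the difference of Bok was not tested. Bok varied widely elsewhere, from 23.1 to 64.3 CPM in the CA Sal libraries and up to 169 CPM in SVZ Sal 1, 117 in SVZ METH 2 and 86.5 in SVZ METH 4. These 3 SVZ libraries also held the most oligodendrocyte marker RNA. In the DG that marker sum was 3043 to 11567 CPM in Sal and 2714 to 13793 CPM in METH. Its part in the level of Bok was not tested.

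**Figure D4:**
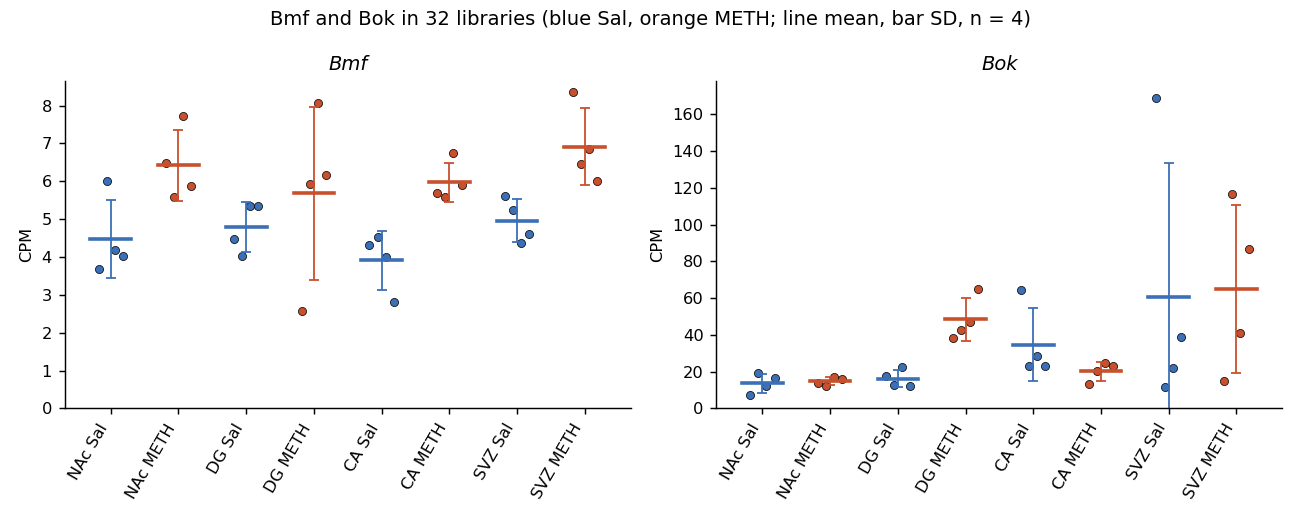
Points are single libraries, lines means and bars SD of 4, in CPM from 0 on linear axes for the 8 groups. METH libraries of Bmf lie above the Sal libraries in the CA and SVZ, and METH libraries of Bok lie above the Sal libraries in the DG, at 38.4 to 65.2 against 12.3 to 22.3 CPM.

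Among caspases and their regulators, 0 of 16 or 17 genes tested had an unadjusted p under 0.05 in any region or in the averaged fit. The smallest p were those of Xiap, a caspase inhibitor, in the NAc (log2 difference -0.14), the mitochondrial protease gene Htra2 in the DG (0.20), Endog, a mitochondrial nuclease, in the CA (-0.29), and Birc2 in the SVZ (0.18), with FDR values of 0.566 to 0.999.

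Of the death receptor pathway, the numbers with an unadjusted p under 0.05 were 0 of 11 genes in the NAc, 3 of 11 in the DG, 1 of 11 in the CA, 2 of 13 in the SVZ and 1 of 13 in the averaged fit, where 3.39%, 12.8%, 7.16%, 2.58% and 7.45% of all genes did so. Tnfrsf21, death receptor 6, had the smallest in the DG, with a log2 difference of 0.66 ± 0.15 (SE, FDR = 0.176, edgeR) between 80.9 to 125 CPM in Sal and 131.0 to 169 CPM in METH, in the DG libraries whose astrocyte and CA pyramidal marker sums are given beside Bok. Ngfr, the p75 neurotrophin receptor, had the smallest in the CA (log2 difference 1.75, FDR = 0.669), at 0.170 to 0.988 CPM in Sal and 0.994 to 2.66 CPM in METH. Its log2 difference was -1.54 in the NAc (95% interval -4.28 to 1.20), -2.67 in the DG and 2.93 in the SVZ. In the DG a single Sal library, replicate 3, stood at 10.9 CPM, beside 0.699 to 2.71 CPM in the other Sal and 0.307 to 0.892 CPM in the METH libraries. In the SVZ, METH 2 and METH 4 stood at 28.3 and 34.5 CPM, beside 2.24 and 1.47 CPM in the other METH and 1.04 to 3.59 CPM in the Sal libraries, and these were also the METH libraries with the most oligodendrocyte marker RNA. The test that its effect differs between regions gave an FDR of 0.358 (edgeR). Cflar, which encodes the caspase-8 inhibitor c-FLIP, stood at a log2 difference of -0.43 in the SVZ (FDR = 0.979) and of -0.17 in the averaged fit (FDR = 0.590). Tradd had the smallest p in the NAc (log2 difference 0.45, FDR = 0.999).

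Of the p53 pathway, 1 of 24 genes in the NAc, 2 of 25 in the DG, 4 of 25 in the CA, 0 of 26 in the SVZ and 5 of 26 in the averaged fit had an unadjusted p under 0.05, again beside 3.39%, 12.8%, 7.16%, 2.58% and 7.45% of all genes. All 5 of the averaged fit were lower in METH: the growth arrest gene Gadd45a (log2 difference -0.43, FDR = 0.619), Usp7 (-0.10), Sesn1 (-0.22), Ei24 (-0.09) and Polk (-0.16), of which all but Gadd45a were named after their values were seen for this fit. The median log2 difference of the 26 genes was nonetheless 0.00, beside 0.01 over all genes. The 1 gene in the NAc was higher in METH, whereas with TMM normalization no gene of this list was higher there at that threshold and 2 were lower. Polk, a translesion DNA polymerase, had the smallest p in the DG (log2 difference -0.57, FDR = 0.220) and in the test of differences between regions (FDR = 0.354, edgeR). Sesn1, a stress-induced sestrin, had it in the CA (log2 difference -0.45, FDR = 0.669) and Eda2r in the SVZ (1.81, 95% interval -0.08 to 3.70, FDR = 0.979). Eda2r was scarce, at 0 to 17 reads in the SVZ Sal libraries and 18 to 62 reads in the SVZ METH libraries. Of all 32 libraries, 9 held 3 reads or fewer of it. Eda2r had 0 reads in SVZ Sal 1 and in METH 3 and METH 4 of the NAc, DG and CA. Those METH libraries carry library numbers 24 and 25 in each of these regions. METH 1 and METH 2 of the same regions held 4 to 10 reads. What lies behind this pattern was not tested.

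In the test that the METH effect differs between regions, 5 of 69 pathway genes had an unadjusted p under 0.05, or 7.25% beside 7.74% of all genes, and none had an FDR under 0.05. The smallest p of the BCL2 family was that of Bok (FDR = 0.672, edgeR).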

How the data were processed

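The 32 RNA-seq libraries (4 Sal and 4 METH in each of the NAc, DG, CA and SVZ) were made from rRNA-depleted total RNA of 1 hemisphere. Per the submitters' processing notes and the methods of the study, the authors trimmed reads with cutadapt 2.7, checked them with FastQC 0.11.4 and aligned them to rn6 with STAR 2.5.2b. Unnormalized read counts per gene were deposited, made per the file headers with featureCounts 1.6.3 without strand, at a mapping quality of at least 10 and on an Ensembl 95 annotation. Reads of a gene and of an overlapping antisense partner therefore cannot be separated.

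The tests were run with edgeR 4.0.16 under R 4.3.3. METH was compared with saline in each region, over all 32 libraries with region as a covariate, and as a region by treatment interaction, and the 4 regions were compared in the 16 saline libraries. Upper-quartile normalization, filterByExpr and the quasi-likelihood F test were used, and FDR values were adjusted over all genes tested. A call needs an FDR under 0.05, and at the stricter thresholds of an FDR under 0.01 and a fold above 1.5 there were 0 calls among the 8 genes. Intervals are 95% t intervals. The fits were tested on simulated counts. Alternatives used TMM, no filter, DESeq2 1.42.0, 2 RUVr factors (a number not given in the sources used here), covariates for RNA integrity, run or library number, a count matrix of the series, and libraries left out. Python 3.11.15, pandas 2.3.3, numpy 2.4.6 and matplotlib 3.10.9 served for tables and plots.

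The genes, the 4 pathway lists and the marker lists were chosen with earlier results of these data known. The genes named are the 9 of the rule, the 3 genes most like each by Pearson's r, and the gene of each pathway list with the smallest p in each METH comparison. Some genes that this rule names are not reported here. For any other gene the text says that it was picked with its values in view. No source states that the samples of a group are separate rats in every case, so p-values measure the spread between samples. Over the 48 pairs of samples within groups, none held identical counts. Same-numbered Sal and METH samples did not deviate together. Regions that share library numbers were treated as independent, other than in the alternatives with a replicate block or library number. Promoter sequences are from RefSeq (GRCr8), and no coordinates were converted between builds.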

Additional observations from a re-analysis of the deposited data

Results flagged for a closer look

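In 6 of the 64 combinations of gene and group, 1 library lay far from the other 3 by Dixon's test at the 95% level, which flags about 1 in 20 groups by chance. Pmaip1 was at 20.0 CPM (424 reads) in SVZ Sal 1, beside 2.82 to 5.39 CPM in the other SVZ Sal libraries. SVZ Sal 1 is also 1 of the 3 libraries with the most oligodendrocyte marker RNA, at rank 3. The next highest levels of Pmaip1, 10.3 CPM in SVZ METH 2 and 9.02 CPM in DG METH 3, stood at ranks 2 and 4. SVZ METH 4, at rank 1, had 5.54 CPM. The part of that marker sum in the Pmaip1 levels was not tested. Pmaip1 was further at 5.13 CPM in NAc Sal 1, beside 4.27 to 4.33 CPM. Bcl2l1 was at 77.2 CPM in CA METH 1, beside 62.9 to 63.7 CPM. Mdm2 was at 32.7 CPM in NAc METH 2, beside 28.1 to 28.8 CPM. Apaf1 was at 26.7 CPM in CA METH 2, beside 32.1 to 32.6 CPM. Bax was at 12.2 CPM in DG Sal 4, beside 13.9 to 14.1 CPM.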

How the results depend on the processing

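Over the METH comparisons, 151 alternatives, 96 of them leaving out 1 library, gave 0 calls among the 8 genes, as did the reported fits. Between regions of the saline libraries, DESeq2 and 2 RUVr factors each called 1 gene (Mdm2) over all 4 regions, and RUVr called 1 gene in the CA against the NAc (Bcl2, FDR 0.0457) and 1 in the SVZ against the NAc (Mdm2, FDR 0.0477), where the reported fit called 0. The 1 call in the SVZ against the CA, Mdm2, became 0 with TMM, with no filter, with the RNA integrity covariate and with the replicate block (FDR 0.0705), and 0 to 1 over the fits that left out 1 library. It was lost without NAc Sal 3, any CA Sal library, or SVZ Sal 2, 3 or 4. The replicate numbers do not pair Sal with METH samples (deviations of same-numbered Sal and METH samples correlated at -0.77 to 0.40, and saline libraries ran best with their own number in 3 of 16 cases), while in saline all 4 pairs of NAc and CA libraries correlated, at 0.119 to 0.243. The block changed no other call, although Casp9 for METH in the SVZ no longer had an unadjusted p under 0.05 with it. With library number as a random effect (correlation 0.025) 0 of the 8 genes were called on average. Of the other pathway genes, 0 were called for METH in a region or on average, against 4 with DESeq2 (Bok, Tnfrsf21, Polk and Bmf), 4 with RUVr (Bok, Ngfr, Tnfrsf21 and Bmf), 1 in 1 fit of all 32 libraries (Polk) and 1 without DG replicates 1 and 2 (Bmf), the last alternatives being chosen after seeing the data. In the interaction, DESeq2 called Ngfr and RUVr called Ngfr and Phlda3, the latter named after its values were seen.

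Of 2364 values of single genes under alternatives, 2328 kept their direction or moved within 1 SE of 0 and kept their side of the threshold, 12 lost and 12 gained a call, and 12 changed sign by more. With the sequencing run in the model, the log2 difference for METH was -0.23 for Mdm2 in the DG (0.14 without it), 0.047 for Mdm2 in the CA (-0.11) and -0.34 for Bmf in the DG (0.25). The DG values of that fit rest on Sal 3, METH 1 and METH 2, since only their run held both treatments there. Leaving out 1 library moved Mdm2 in the DG from -0.044 to 0.23. SVZ Sal 1 turned Pmaip1 and Bcl2l1: over the fits that left out 1 library, Pmaip1 ran from -0.83 to 0.53 for METH in the SVZ, from -0.21 to 0.086 on average, and in saline from -0.11 to 1.13 in the SVZ against the NAc, -0.72 to 0.52 against the DG and -0.32 to 0.93 against the CA, while Bcl2l1 ran from -0.094 to 0.17 against the NAc and -0.069 to 0.19 against the DG. Pmaip1 in the SVZ against the DG was -0.20 with RUVr (0.24 in the reported fit). The causes were not tested. Depth limits Fas most, at 2 to 25 reads per library.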
